A study of Rattus norvegicus with 2 samples.

Results

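Cadherins, protocadherins and the neuronal adhesion genes described here are 96 of the 18156 genes listed in a piggyBac (PB) insertion screen of rat haploid embryonic stem cells (haESCs). They were picked from the table by a pattern of symbols: numbered cadherins (Cdh), protocadherins (Pcdh), Fat and Dachsous (Dchs) cadherins, Celsr cadherins, neurexins (Nrxn), neuroligins (Nlgn), contactins (Cntn), contactin-associated proteins (Cntnap) and Shank scaffolds. The pattern uses no measured value, although the family was taken up with earlier results of these data known. Of the members, 39 belonged to the clustered protocadherins and 57 lay elsewhere.

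The screen looked for insertions that keep rat haESCs in the naive pluripotent state during random differentiation. All cells came from the RAH-1 haploid line, with green fluorescent protein placed downstream of Rex1, and were mutated with PB-SA-RFP, a PB vector that carries a splice acceptor and red fluorescent protein. PB-Diff is the library after screening: cells that were still green after differentiation as embryoid bodies, sorted and returned to stem cell medium on feeder cells. PB-Ctrl is the library before screening, the mutant cells before that selection, so both groups carried the reporter, the vector and a single haploid line as background. There was 1 library per group, so no difference here has a replicate check and no p-value is given. The labels describe a messenger RNA preparation, while the table holds insertions, the product of splinkerette PCR, which amplifies genomic sequence beside a transposon end. Insertion counts do not measure expression, so the labelled cell type could not be checked against marker genes, and a share of insertions cannot tell more mutated cells from insertions that were better amplified.

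Classical cadherins hold neighbouring cells together through calcium-dependent repeats outside the cell and bind catenins inside it. Type I members include E-cadherin, the junction protein of pluripotent epithelial cells, and N-cadherin, which mesenchymal and neural cells use. Clustered protocadherins give single neurons a surface identity: each alpha or gamma gene joins its own variable exon to constant exons shared along the cluster, whereas each beta gene is a single exon. Neurexins on the presynaptic side bind neuroligins across the synaptic cleft, contactins and their associated proteins organise axons and myelin, and Shank proteins anchor postsynaptic receptors. In a haploid cell an insertion can remove the only copy of a gene, and many of these genes are long, which gives a transposon a large target.

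Promoters of clustered genes are shown because the clusters had higher shares of insertions after screening while the other members together did not, and because beta and gamma genes carry different forms of a shared promoter element. Sequences are from RefSeq (GRCr8), matched by symbol for 62 of the members. Each stretch below runs 5′ to 3′ on the plus strand, and the capitals mark the CGCT core of the conserved sequence element that lies upstream of most clustered protocadherin exons. The beta genes are those with at least 4-fold higher shares of insertions after screening, followed by Pcdhb2, whose share was lower. The gamma genes are Pcdhga10 and the genes around it.
Pcdhb5 (chr18:29302407-29302436): aacgcagggtggCGCTgcaggctaagattt
Pcdhb6 (chr18:29320155-29320184): tacacacggtggCGCTgcagtctaaggatt
Pcdhb10 (chr18:29391781-29391810): gacgcgtggtggCGCTgtctactaagaaag
Pcdhb21 (chr18:29492152-29492181): gtcacatggtggCGCTgcaggataggatga
Pcdhb2 (chr18:29279926-29279955): aacgcagggtggCGCTgcagcctcagaaat
Pcdhga9 (chr18:29815786-29815815): ggctctgagcgcCGCTgttcaccaactgta
Pcdhga10 (chr18:29825817-29825846): gactctgagcgcCGCTgttcacctaccagg
Pcdhga11 (chr18:29834477-29834506): ggctctaggcgcCGCTcttgaccaataagg
Pcdhga12 (chr18:29843865-29843894): gactctgagcgcCGCTgttcacccacgggg

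On either strand, the motif GGTGGCGCT was present in the promoters of 11 of 11 matched beta genes and 0 of 12 matched gamma genes, against 0.457% of 33469 rat promoters of the same length. The motif CGCTNTT was present in 11 of 12 gamma genes, 1 of 11 beta genes and 6.72% of all promoters. Both contain the core, so they overlap where a window holds both, and both were written down after these windows had been read. The element was shared by Pcdhb5, which had insertions only after screening, and by Pcdhb2, whose share was lower, so its presence did not separate the genes by their counts. TTAA, the sequence that PB integrates into, was present in the promoters of 38 of the 62 members (61.3%) and in 53.9% of all promoters.

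The library after screening held 1287231 insertions assigned to genes and the library before screening 1528935. The members took 33978 insertions after screening, a share of 2.64%, and 34481 before screening, a share of 2.26%, a ratio of 1.17 with a 95% counting interval of 1.15 to 1.19. The excess lay in the clustered protocadherins, whose share was 1.67-fold higher (1.64 to 1.71). Without them the members took 1.06% of the insertions after and 1.31% before screening, a ratio of 0.810 (0.793 to 0.828). The alpha and gamma counts include the same insertions many times, as set out below. With each of these clusters counted once, by its member with most insertions, an alternative chosen after seeing the data, the ratio was 0.898.

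Of the 96 members, 93 were hit after and 91 before screening. After screening Cdh16, Cdh19 and Pcdh12 were at 0, and before screening Pcdhb4, Pcdhb5, Pcdhb10, Pcdhb21 and Pcdh20 were at 0. Measured genes had 10 or more insertions over both libraries, which held for 94 members. A gene was called if its shares in the libraries were 4-fold or more apart and the 95% interval of their ratio did not include 1. This is a rule of size and not a test. By it 11 of the 94 members (11.7%) were higher after screening, against 19.5% of all 11976 measured genes, and 6 (6.38%) were lower, against 21.7% of all measured genes. The higher ones were Nlgn3, Cntnap1, Pcdh8, Pcdh20, Cdh9, Cdh11, Pcdhga10, Pcdhb5, Pcdhb6, Pcdhb10 and Pcdhb21. The lower ones were Cdh5, Cdh16, Cdh19, Cdh26, Pcdh7 and Shank3. Both shares were under the background. With each alpha and gamma cluster counted once, an alternative chosen after seeing the data, 10 of 68 members were higher and 6 were lower. Without members that overlap another gene or locus or were not matched in GRCr8, the higher share (8 of 34) was above the background.

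**Figure D1:**
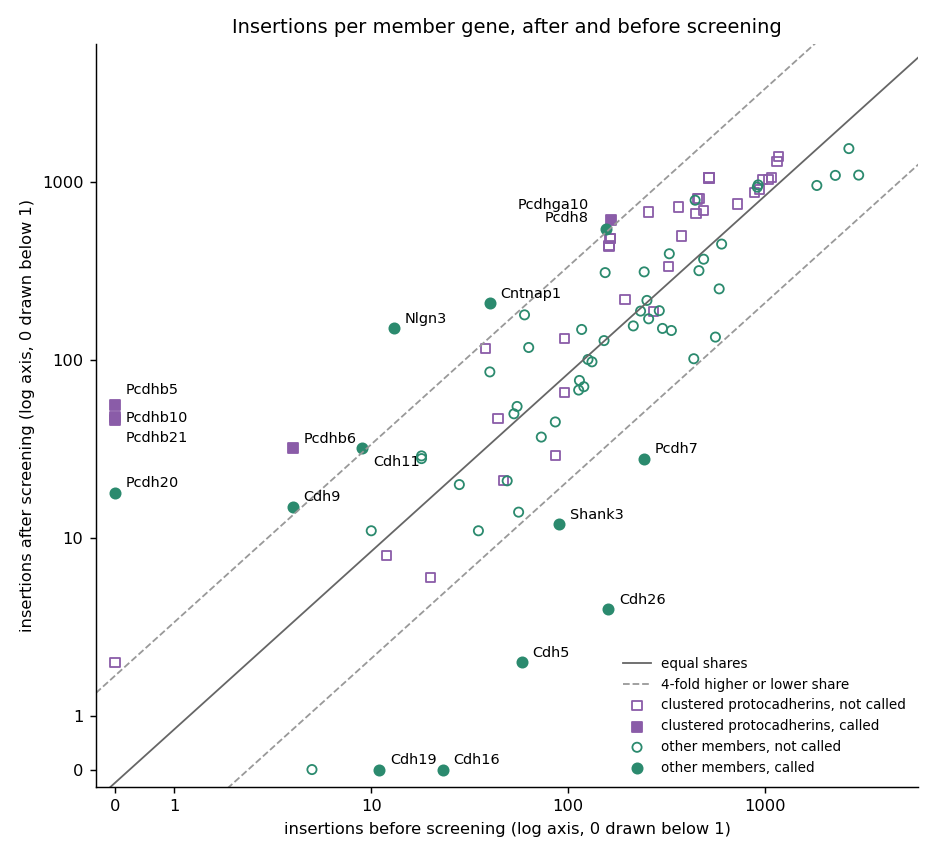
Insertions of each of the 96 members after screening (vertical axis) and before screening (horizontal axis), both on log axes with 0 drawn below 1; each point is 1 gene, squares are clustered protocadherins, filled points are the 17 called members, and the lines mark equal shares and 4-fold differences. The 11 genes called higher lie above the upper dashed line and the 6 called lower lie below the lower one. The genes with 1000 or more insertions over both libraries lie between the dashed lines, some of them off the line of equal shares.

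The members were also hit more often than other genes, and calls were rarer where insertions were many. The median measured member had 424.5 insertions over both libraries and the median measured gene had 105. Over the 56 measured members outside the clusters the median was 244.5. Among members with 10 to under 30 insertions 57.1% of 7 were called, against 61.8% of all genes in that range. With 300 to under 1000 insertions 7.69% of 26 members were called, against 16.7% of genes, and with 1000 or more 0 of 24, against 4.41%. Within every range a smaller share of members than of all genes was called. The ranges from 300 insertions up hold many alpha and gamma protocadherins, which count the same insertions repeatedly. Members in these ranges are therefore not independent counts, and the ranges were not taken with each cluster counted once. At least 2-fold, whatever the interval, 28 of 94 members (29.8%) were higher and 13 (13.8%) were lower, against 31.5% and 32.4% of all measured genes. The median log2 ratio was 0.27 over the members and -0.01 over all measured genes, and it was -0.19 over the 56 measured members outside the clusters, of which 6 were higher and 6 were lower.

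The classical cadherins of type I were not called in either direction, against 19.5% higher and 21.7% lower of all measured genes. Cdh1, which encodes E-cadherin (ENSRNOG00000020151), held 129 insertions after and 152 before screening, a ratio of shares of 1.01 (0.791 to 1.28). Cdh2, which encodes N-cadherin (ENSRNOG00000015602), held 151 insertions after and 301 before screening, a 1.68-fold lower share (1.38 to 2.05). The interval of Cdh1 thus included equal shares and that of Cdh2 did not. Cdh15, the M-cadherin of muscle precursors, held 102 and 434 insertions, 3.58-fold lower after screening (2.88 to 4.49) and just under the rule. Cdh3 held 28 insertions after and 18 before screening, a ratio of 1.85 with an interval that included equal shares (0.987 to 3.55). Over the 4 genes together the share was 1.86-fold lower (1.65 to 2.09), a sum in which Cdh15 and Cdh2 held the most insertions.

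Of the 11 type II cadherins, 2 were higher and 2 were lower (18.2% each, against 19.5% and 21.7% of all measured genes). Cdh11, a cadherin of mesenchymal and bone-forming cells, held 32 insertions after and 9 before screening (4.22-fold higher, 1.97 to 10.1). Cdh9, which in mice contributes to synapse formation, held 15 and 4 (4.45-fold higher, 1.42 to 18.4). These counts were small and their lower bounds lay far under 4. Cdh5, the VE-cadherin of vascular endothelium (ENSRNOG00000013324), held 2 insertions after and 58 before screening, a 24.4-fold lower share (6.46 to 206). Cdh19, a cadherin of Schwann cell precursors, held 0 after and 11 before screening, at least 3.09-fold lower when the 0 is set to a floor of 3 insertions. The type II gene with most insertions, Cdh22, held 1095 and 2271, 1.75-fold lower after screening (1.62 to 1.88), and Cdh6 held 156 and 214 with an interval that included equal shares (0.700 to 1.07).

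The other cadherins held the members furthest on the lower side. Cdh26 (ENSRNOG00000053332), found on epithelial cells in humans, held 4 insertions after and 160 before screening, 33.7-fold lower (12.9 to 125). Cdh16, the kidney cadherin (ENSRNOG00000012222), held 0 and 23 insertions, at least 6.45-fold lower. All 5 genes of the group had lower shares after screening. Cdh23, the tip link protein of hair cells and the member with most insertions after screening, held 1549 and 2660 (1.45-fold lower, 1.36 to 1.54), and the membrane-anchored Cdh13 held 961 and 1829 (1.60-fold lower, 1.48 to 1.73). In GRCr8 the Cdh23 locus also holds Psap, Vsir and C20h10orf105, to which some of its insertions can belong.

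The non-clustered protocadherins diverged. Pcdh8, a protocadherin of paraxial mesoderm and brain (ENSRNOG00000013101), held 545 insertions after and 155 before screening, 4.18-fold higher (3.49 to 5.02). Pcdh20 (ENSRNOG00000013306) held 18 after and 0 before screening, at least 7.13-fold higher against the floor. Pcdh7 (ENSRNOG00000012367) went the other way, with 28 insertions after and 242 before screening, 7.28-fold lower (4.91 to 11.2). Pcdh9 held 217 and 251 insertions, and its interval included equal shares (0.852 to 1.24). The other 6 members ranged from 0 to 171 insertions after and from 5 to 256 before screening, and none was called.

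Among the giant cadherins of planar cell polarity, 0 of 5 Fat and Dachsous genes and 0 of 2 Celsr genes were called. Of all measured genes 19.5% were called higher and 21.7% lower. At least 2-fold, 2 of the 5 Fat and Dachsous genes were higher and 2 lower (40% each, against 31.5% and 32.4% of all measured genes). Fat3 held 794 insertions after and 441 before screening, 2.14-fold higher (1.90 to 2.41), and Fat2 held 135 and 559, 3.49-fold lower (2.88 to 4.24). Fat4, the receptor of Dachsous, held 180 and 60 (3.56-fold higher, 2.65 to 4.86), while its ligand Dchs1 held 190 and 290 (1.29-fold lower, 1.07 to 1.55). Celsr3, which guides axon tracts, held 397 and 326 insertions (1.45-fold higher, 1.25 to 1.68), and Celsr2 held 189 and 233 with an interval that included equal shares (0.791 to 1.17).

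**Figure D2:**
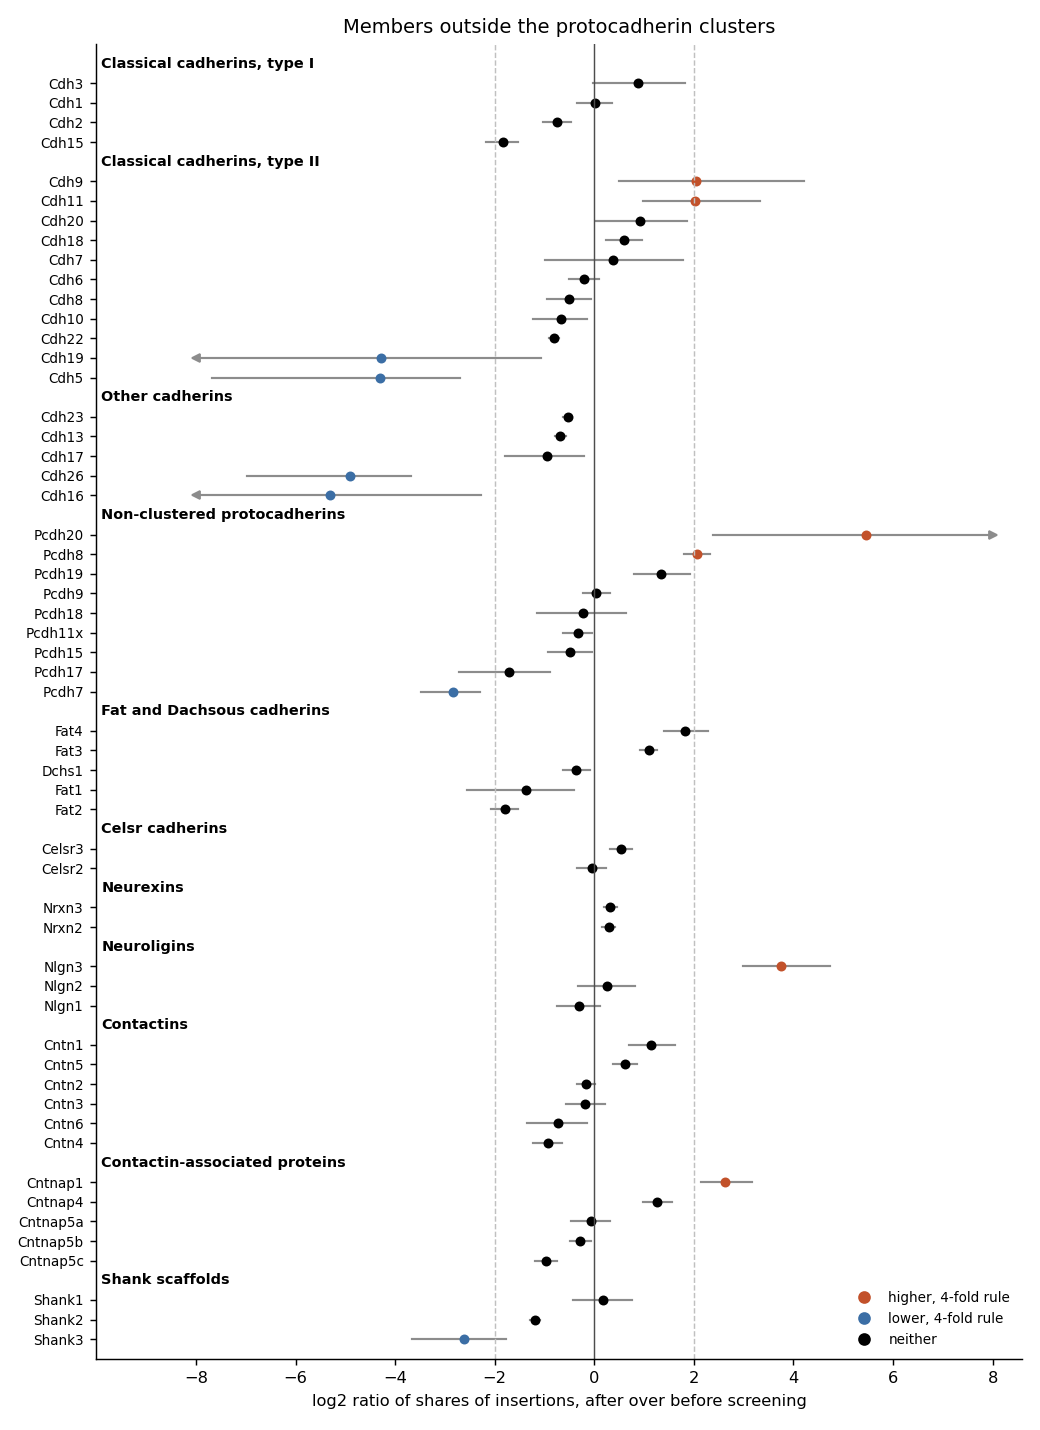
Log2 ratio of the share of insertions after over before screening for the measured members outside the protocadherin clusters that are reported here, grouped by subfamily; points use a pseudocount of 0.5 insertions, lines are 95% counting intervals (arrows where a count is 0), and dashed lines mark 4-fold differences. The genes called higher are Cdh9, Cdh11, Pcdh8, Pcdh20, Nlgn3 and Cntnap1, those called lower are Cdh5, Cdh16, Cdh19, Cdh26, Pcdh7 and Shank3, and Nrxn2, Nrxn3 and every contactin lie between the dashed lines.

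Of the synaptic genes, Nrxn2 and Nrxn3 had near-equal shares while 1 neuroligin stood apart. Nrxn2 held 940 insertions after and 912 before screening (ratio 1.22, 1.12 to 1.34), and Nrxn3 held 968 and 921 (1.25, 1.14 to 1.37). Nlgn3 (ENSRNOG00000003812), a postsynaptic neurexin receptor, held 152 insertions after and 13 before screening, 13.9-fold higher (7.88 to 26.7). Forward and reverse insertions numbered 50 and 53 after screening and 0 and 2 before it, and 49 after and 11 before screening had no counted orientation. Nlgn1 held 77 and 114 insertions and Nlgn2 55 and 55, both with intervals that included equal shares (0.593 to 1.08 and 0.802 to 1.76). Nlgn3 alone of the 3 neuroligins was called.

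Contactins were not called, against 19.5% higher and 21.7% lower of all measured genes. Their ratios lay between 0.523 for Cntn4 and 2.22 for Cntn1. Cntn2, an axonal adhesion molecule, held 450 insertions after and 601 before screening (ratio 0.889, 0.785 to 1.01), and Cntn5 held 314 and 243 (1.53-fold higher, 1.29 to 1.82). Cntnap1 (ENSRNOG00000020277), which joins contactin at the borders of the node of Ranvier, held 209 after and 40 before screening, 6.21-fold higher (4.41 to 8.94). It shares its locus with the chemokine receptor gene Ccr10 in GRCr8. Of its relatives, Cntnap4 also had a higher share (311 after and 154 before screening, 2.40-fold, 1.97 to 2.93), while Cntnap5b (319 after and 461 before screening, 1.22-fold lower) and Cntnap5c (252 and 584, 1.95-fold lower) had lower shares. All contactins and contactin-associated proteins together had ratios near equal shares, 0.956 (0.884 to 1.03) and 1.04 (0.959 to 1.12).

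Of the subfamilies, Shank scaffolds had the lowest ratio of summed shares, 2.27-fold lower after screening (2.12 to 2.43). Shank2 held most of that sum, 1099 of 1161 insertions after and 2983 of 3126 before screening. Shank3 (ENSRNOG00000052296) held 12 insertions after and 90 before screening, 6.31-fold lower (3.44 to 12.7). Shank2, the member with most insertions before screening, held 1099 and 2983, 2.29-fold lower (2.13 to 2.45). Shank1 held 50 and 53, and its interval included equal shares (0.746 to 1.68). The loci of all 3 genes overlap other genes in GRCr8: Acr at Shank3, C1h19orf81 at Shank1 and a predicted gene at Shank2. Among the 34 measured members that matched GRCr8 and overlapped no gene or predicted locus there, 8 were called higher and 2 lower. The higher share was above the 19.5% of all measured genes and the lower share was under their 21.7%. Of the lower calls, Shank3, Pcdh7, Cdh16 and Cdh19 overlap another locus.

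The counts of the alpha and gamma protocadherins were nested. From Pcdha1 to Pcdhac2 the insertions per gene decreased from gene to gene along the cluster in both libraries, and from Pcdhga1 to Pcdhgc3 no gene had more than the gene before it. Pcdha1 held 1397 insertions after and 1173 before screening, Pcdha8 757 and 723, and Pcdhac2, the last, 21 and 47. Pcdhga1 held 1061 and 519, Pcdhga10 614 and 165, and Pcdhgc3 133 and 96. Pcdhga1, Pcdhga2 and Pcdhga3 had the same 519 insertions before screening. Each gene model runs to the shared constant exons, so an insertion was counted for every gene whose variable exon lies upstream of it, and the 15 alpha or 13 gamma genes are not independent counts.

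**Figure D3:**
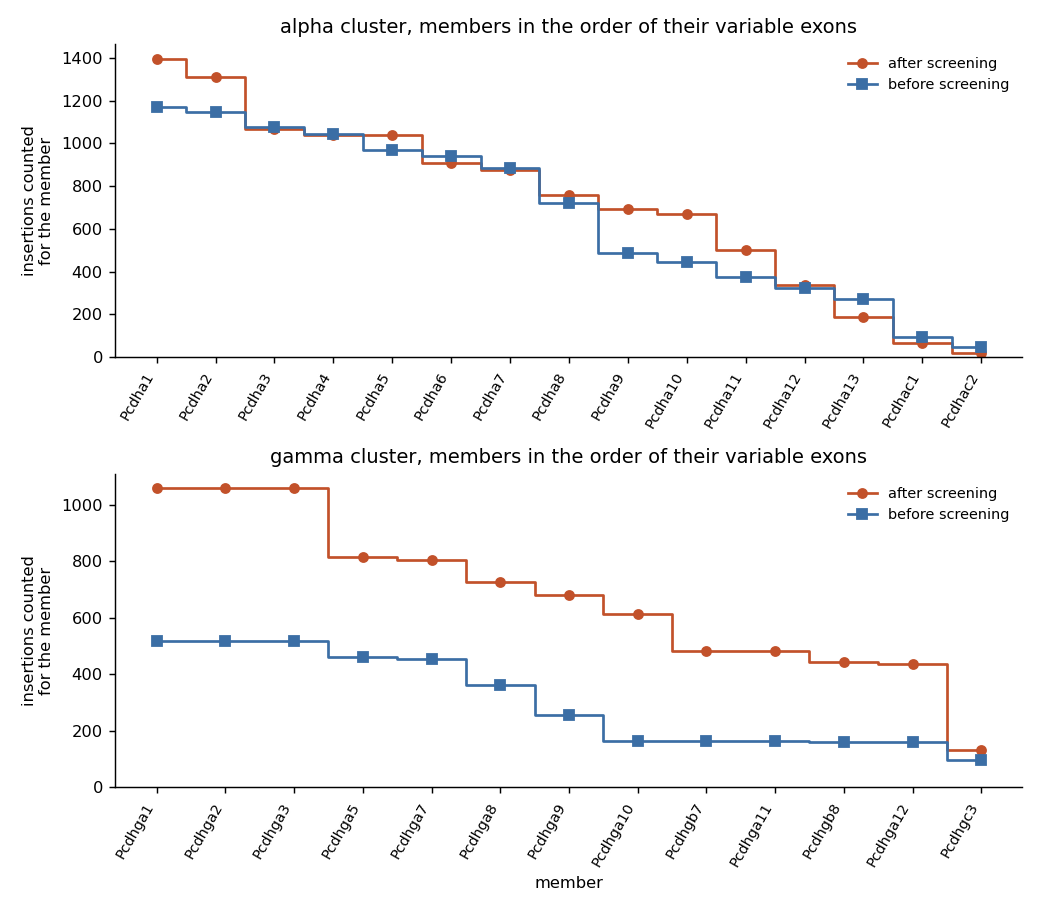
Insertions counted for each alpha member (top) and gamma member (bottom) after and before screening, on linear axes from 0, with members in the order of their variable exons. Alpha counts run from 1397 and 1173 at Pcdha1 to 21 and 47 at Pcdhac2, with the libraries close together, and gamma counts run from 1061 and 519 at Pcdhga1 to 133 and 96 at Pcdhgc3, with the library after screening above at every member.

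As whole models, 0 of 15 alpha genes were called, against 19.5% higher and 21.7% lower of all measured genes. Their log2 ratios lay between -0.90 and 0.84. Of 13 gamma genes 12 were at least 2-fold higher (against 31.5% of all measured genes) and only Pcdhga10 was called (ENSRNOG00000027253, 4.42-fold higher, 3.72 to 5.28). Most alpha and gamma models held 300 or more insertions over both libraries. Of all genes, 16.7% with 300 to under 1000 and 4.41% with 1000 or more were called in either direction. Since these models repeat the same insertions, the difference between neighbouring members was taken as the count of the stretch between their starts. These stretches differed far more than the models. In the alpha cluster their log2 ratios lay between -4.63 and 2.23. Of the 15 stretches there 3 were called higher and 1 lower, against 19.5% and 21.7% of all measured genes. Most of the 15 held 30 to under 300 insertions over both libraries. In that range 53.8% of all genes with under 100 insertions and 36.0% of those with 100 or more were called in either direction.

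The alpha stretches did not share a direction. The stretch from Pcdha2 to Pcdha3 held 243 insertions after and 70 before screening (4.12-fold higher, 3.15 to 5.46), that from Pcdha1 to Pcdha2 held 88 and 24 (4.36-fold, 2.75 to 7.15), and that from Pcdha5 to Pcdha6 held 128 and 32 (4.75-fold, 3.20 to 7.24). Right before the last of these, the stretch from Pcdha4 to Pcdha5 held 2 insertions after and 73 before screening, 30.7-fold lower (8.21 to 259). Pcdha4 itself had 1040 and 1044 insertions, so the gene count showed nothing of this difference. From Pcdha8 to Pcdha9 the stretch held 62 and 236 (3.20-fold lower, 2.41 to 4.31), and the 3 stretches from Pcdha10 to Pcdha13 were 2.87-fold, 3.82-fold and 3.32-fold higher.

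In the gamma cluster 9 stretches were measured, of which 4 were higher and 0 lower, against 19.5% and 21.7% of all measured genes. Most of the 9 held 100 to under 300 insertions over both libraries, a range in which 36.0% of all genes were called in either direction. The stretch from Pcdhga10 to Pcdhgb7 held 130 insertions after and 1 before screening, a ratio of 154 with a wide interval (27.2 to 6145). That from Pcdhga12 to Pcdhgc3 held 305 and 65 (5.57-fold higher, 4.25 to 7.40), that from Pcdhga3 to Pcdhga5 held 244 and 58 (5.00-fold, 3.74 to 6.77), and that from Pcdhga11 to Pcdhgb8 held 40 and 2 (23.8-fold, 6.16 to 203). Between them, the stretches from Pcdhga7 to Pcdhga10 were not higher: 78 after and 91 before screening, 46 and 108, and 68 and 91. The 4 stretches called higher were apart from each other, and their insertions were counted for every member upstream of them. Taken in reads in place of insertions, chosen after seeing the data, 14 of 15 alpha and 9 of 9 gamma stretches kept their call.

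**Figure D4:**
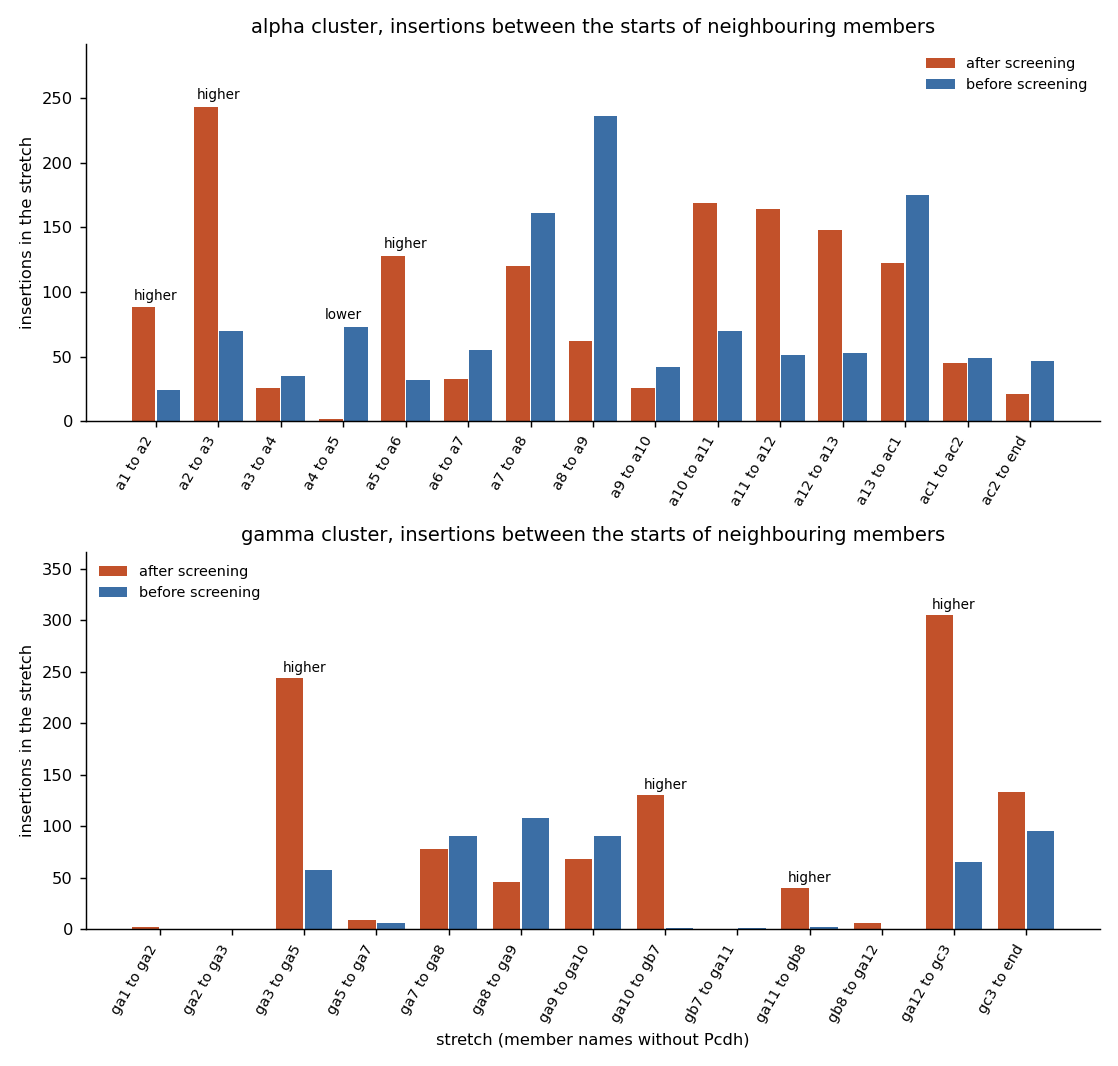
Insertions after and before screening between the starts of neighbouring members of the alpha cluster (top) and the gamma cluster (bottom), as bars from 0, with stretches called higher or lower by the rule of size marked. The stretch from Pcdha4 to Pcdha5 holds 2 insertions after and 73 before screening, and the stretch from Pcdhga10 to Pcdhgb7 holds 130 and 1.

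Insertions read as lying in exons, those with no counted orientation, also varied along the clusters. Pcdha8 had 56 of them after and 216 before screening, Pcdha4 had 2 and 55, Pcdha2 had 199 and 62, and Pcdha5 had 101 and 22. Exon insertions are largely the same insertions as those of the stretch that begins at the gene, so both counts rest on the same data. Pcdha3 had 26 exon insertions after and 0 before screening while its stretch held 26 and 35, and Pcdhac2 had 21 and 0 while its stretch held 21 and 47. Of the gamma genes, each had at least 61 exon insertions before screening, and the lowest count after screening was 0, at Pcdhga2, Pcdhga8, Pcdhga9 and Pcdhgb7. Insertions that every gamma model counts in an exon were read as lying in the exons they share. These numbered 0 after and 61 before screening, as at Pcdhga2 (at least 17.1-fold lower). As a share of all insertions in genes, exon insertions were higher after screening at 4 gamma genes. Their counts before screening include the shared ones. Exon insertions numbered 130 after and 63 before screening at Pcdhga10 and 251 and 90 at Pcdhga12. At Pcdhga3 they numbered 136 and 108 (interval of the ratio 1.15 to 1.94) and at Pcdhgc3 132 and 92 (1.70-fold, 1.30 to 2.25). As a percent of the gene's own insertions they were lower after screening at Pcdhga10 (21.2% after and 38.2% before) and Pcdhga3 (12.8% and 20.8%). By that measure they were slightly higher at Pcdhga12 (57.3% and 55.9%) and Pcdhgc3 (99.2% and 95.8%).

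The beta genes have separate single-exon models, and 4 of 10 measured were higher (40%, against 19.5% of all measured genes) and 0 lower. Each of the 4 had 30 to under 100 insertions over both libraries, a range in which 53.8% of all genes were called in either direction. Pcdhb5 (ENSRNOG00000020084) held 56 insertions after and 0 before screening, at least 22.2-fold higher, Pcdhb10 held 48 and 0 and Pcdhb21 held 46 and 0 (at least 18.2-fold). Pcdhb6 held 32 and 4 (9.50-fold higher, 3.37 to 37.0), and Pcdhb12 116 and 38 (3.63-fold, 2.49 to 5.38). Other beta genes did not follow them. Pcdhb9, the beta gene with most insertions, held 220 after and 194 before screening (1.35-fold higher, 1.11 to 1.64), Pcdhb2 held 29 and 86 (2.50-fold lower, 1.62 to 3.95) and Pcdhb8 held 6 and 20 (2.81-fold lower, 1.09 to 8.54). Beta genes are near-identical in parts of their sequence, so reads can be assigned to the wrong copy and single counts are uncertain. Stretches and exon counts to describe in these clusters were chosen after their values were seen.

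The orientation of insertions in the members was even in both libraries. Forward insertions made up 50.2% of those with a counted orientation after screening (49.6 to 50.7) and 49.97% before screening (49.4 to 50.6), against 49.5% and 49.6% over all genes. The evenness held gene by gene to a degree that independent insertions would not give. For the members with at least 20 insertions of counted orientation, the squared difference of forward and reverse counts over their sum averaged 0.251 after and 0.250 before screening, where independent orientations give 1 on average. Over all genes it averaged 0.369 and 0.345. Insertions of a gene may therefore not be separate counts, and the intervals here cover counting error only and can be too narrow. With all counts halved in the interval, 10 of the 11 higher and 5 of the 6 lower members kept their call, and Cdh9 and Cdh19 lost it.

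Disrupting insertions, which the table counts apart, were all insertions less the reverse ones in 92 of the 93 members hit after and 90 of the 91 hit before screening. Shank2 was the exception in both libraries. Disrupting insertions made up 56.2% of the members' insertions after and 54.8% before screening, against 57.6% and 56.5% over all genes. The share read as exon insertions was 12.6% after (12.2 to 12.9) and 10.4% before screening (10.1 to 10.7), against 16.3% and 13.9% over all genes, so members lay below other genes in both libraries. Subfamilies ranged widely: Celsr genes had 60.9% after (56.8 to 64.9) and 33.1% before screening (29.2 to 37.2), non-clustered protocadherins 36.8% and 18.1%, neurexins 12.4% and 2.72%, and type II cadherins 5.36% and 0.960%. The share was lower after screening in the other cadherins (2.49% after and 3.69% before). It was also lower in Fat and Dachsous genes (28.1% and 29.5%) and in clustered protocadherins (10.8% and 14.1%). Exon insertions numbered 266 after and 102 before screening in Celsr3, 390 and 128 in Pcdh8, 278 and 52 in Nrxn2 and 66 and 21 in Cdh22. In Celsr2 they numbered 91 and 83. Counted in disrupting insertions alone, 8 of the 11 higher and 5 of the 6 lower members kept their call. Those lost were Pcdh8 (461 after and 142 before screening, 3.78-fold, 3.13 to 4.60), Pcdhga10 (381 and 117, 3.79-fold, 3.08 to 4.71), Cdh9 (8 and 2) and Cdh19 (0 and 6). Fat4, not called in insertions, passed the rule by that count (159 and 42, log2 ratio 2.13). In total 9 of 94 members were higher in disrupting insertions and 5 were lower, against 17.4% and 19.7% of all genes.

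**Figure D5:**
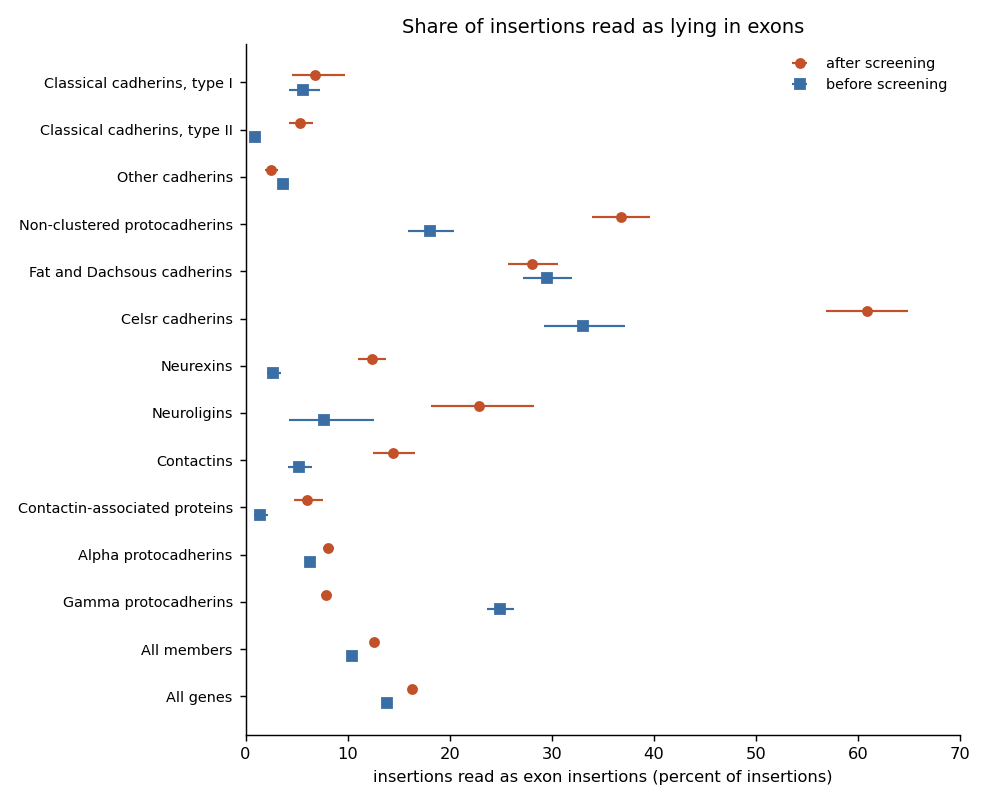
Share of insertions read as exon insertions, in percent, for each subfamily, all members and all genes, after and before screening; lines are 95% Clopper-Pearson intervals, and beta protocadherins (100% in both libraries) and Shank scaffolds are not drawn. Celsr cadherins stand at 60.9% after and 33.1% before screening, non-clustered protocadherins at 36.8% and 18.1%, and gamma protocadherins, in which shared exons are counted repeatedly, at 7.91% and 24.96%.

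Reads followed insertions in most members. The median member with at least 10 insertions had 1.34 reads per insertion after and 1.36 before screening, against 1.32 and 1.37 over all genes. Nrxn2 (ENSRNOG00000021103) was the 1 member above 2 reads per insertion after screening, with 5686 reads on 940 insertions, or 6.05 reads each, against 1348 reads on 912 insertions, or 1.48 each, before screening. Its log2 ratio was 0.29 in insertions and 2.34 in reads, the largest gap of the named members. Whether a few insertions of Nrxn2 took most of these reads was not tested, since the table gives totals per gene. In reads, 10 of the 11 higher and all 6 lower members were called as in insertions, and Cdh11 was just under the rule (46 reads after and 14 before screening, 3.95-fold, 2.13 to 7.77). Other members were called in reads only. In total 16 of 94 members were higher in reads and 7 were lower, against 20.4% and 22.8% of all genes.

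The partner genes listed here are genes that bind or anchor members together with related families of adhesion genes. They gave 3 higher and 5 lower calls among 71 measured, with a median log2 ratio of 0.03. Of the catenins and junction partners 1 of 14 was higher and none lower: Tjp1, which encodes the tight junction scaffold ZO-1, held 27 insertions after and 2 before screening (16.03-fold higher, 4.03 to 139). Ctnnb1, which encodes beta-catenin, held 0 in both libraries and could not be compared. Among neurexin and neuroligin partners 1 of 17 was higher and none lower: Cbln2, a cerebellin that bridges neurexins to glutamate receptors of the delta type, held 191 and 9 (25.2-fold higher, 13.0 to 56.0).

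The postsynaptic partners of Shank gave 2 lower calls of 16 and none higher, both Homer proteins that link Shank to metabotropic glutamate receptors. Homer2 held 34 insertions after and 313 before screening (7.75-fold lower, 5.43 to 11.4), and Homer3 held 0 and 105 (at least 29.5-fold lower). Their relative Homer1 held 57 and 123 (1.82-fold lower, 1.32 to 2.53) and was not called. Among desmosomal and cadherin-related genes 1 of 10 was higher, the photoreceptor cadherin Cdhr1 (309 after and 91 before screening, 4.03-fold higher, 3.18 to 5.15), and 1 was lower, Cdhr5 of the intestinal brush border (1 and 131, 110-fold lower, 19.5 to 4389). Of 14 immunoglobulin adhesion molecules none was higher and 2 were lower, Alcam (8 and 66, 6.95-fold lower, 3.33 to 16.8) and Cadm4 (3 and 24, 6.74-fold lower, 2.05 to 34.9). In each of these lists the share called was below the 19.5% higher and 21.7% lower of all measured genes. Calls were rarer where insertions were many, and the partners were not compared with genes of a like number of insertions.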

How the data were processed

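The study mutated RAH-1 haESCs with the PB vector and sequenced insertion sites after splinkerette PCR. Its methods name the FASTX toolkit for trimming and HaSAPPy for alignment, with insertions per gene taken from Gencode annotation and no versions stated there. Tools of an RNA pipeline, HISAT2 2.0.5 and featureCounts 1.5.0-p3, are given in the submitters' processing notes. The genome build is uncertain: the methods name one of mouse, and the identifiers in the table are of rat. No position from the table is used, and promoter coordinates are those of RefSeq (GRCr8). The values deposited by the authors are raw counts of insertions, disrupting insertions, forward and reverse insertions and reads for every gene in each library, not scaled to depth. The labels do not explain the number at the end of both libraries' column names. Another 33 columns, among them the authors' own folds, ranks and Fisher scores, were not used. Insertions outside genes (57.9% after and 57.3% before screening) entered the totals in 1 alternative only.

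A fold is the share of insertions in genes after screening over that before screening, with an exact conditional binomial 95% interval. The rule of size took a count of 0 as it stands. Log2 ratios used a pseudocount of 0.5. Lower bounds set a count of 0 to a floor of 3 insertions, a share of 0.000233% after and 0.000196% before screening. Shares have Clopper-Pearson intervals. All intervals and floors are for counting error alone, because PCR copies were not marked by molecular identifiers. Symbols of 82 of the 96 members were matched in GRCr8, where 46 overlap another gene, and 10 outside the clusters overlap a protein-coding one. Members named with values are the called members with the bound furthest from 1 (up to 3 in each direction per subfamily), the 2 with most insertions per subfamily, the 5 with most insertions in each library, and Cdh1 and Cdh2. Every other member or stretch given with values was chosen after its values were seen. The symbol pattern, the members it gives, gene lists, rules and alternatives were chosen with earlier results of these data known. Of 94 partner genes listed, 79 were analysed here and 71 were measured. The values of 1 member are not reported here, although it enters counts and sums. Python 3.11.15, NumPy 2.4.6, pandas 2.3.3, SciPy 1.17.1 and Matplotlib 3.10.9 were used. The alternatives were reads, disrupting insertions, other totals, count minimums, folds, pseudocounts and floors, halved counts, and members left out.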

Additional observations from a re-analysis of the deposited data

How the results depend on the processing

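The ratio of the members' summed shares turned round with the members counted. It was 1.17 over all members, 0.810 without the clustered protocadherins and 0.898 with each cluster counted once, an alternative chosen after seeing the data. It was 1.01 without members that overlap another gene or locus or were not matched in GRCr8, 1.29 in reads and 1.13 with scaling by the median gene. In reads, Nrxn2 alone held 5686 of the members' 51874 after screening and 1348 of their 48308 before it. The median log2 ratio of 0.27 likewise became -0.19 without the clusters and -0.11 with each alpha and gamma cluster counted once. Leaving out the clusters also leaves out the beta genes (median 1.14). The 11 members called higher became 5 with at least 50 insertions (5 of 79, against 15.5% of all genes), 28 of 94 at 2-fold (against 30.4%), 6 of 94 at 8-fold (against 13.1%) and 6 of 56 without the clusters (against 19.5%). Without the overlapping and unmatched members 8 of 34 were higher, a larger share than the 19.5% of all genes. The 6 called lower became 13 of 94 at 2-fold (against 31.3%) and 2 without the overlapping and unmatched members (2 of 34, against 21.7%). In reads 16 of 94 members were higher (against 20.4% of all genes) and 7 were lower (against 22.8%). Under none of the alternatives was a called member called the other way. Of 38 named members, the log2 ratio of 35 stayed within its interval in reads and of 34 in disrupting insertions. Those that left it were Fat2 (-2.09), Nrxn2 (2.34) and Shank2 (-1.46) in reads, and Pcdha2 (0.56), Celsr3 (0.84), Nrxn2 (0.50) and Cntn2 (0.07) in disrupting insertions, the last from below to above 0. No paired analysis was possible because there was 1 library before and 1 after screening. With counts of 0 set to the floor, all 11 higher and 5 of the 6 lower members kept their call. Depth limits genes such as Cdh19, Cdh9 and Pcdhb4, which had few insertions in either library.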
